A study of Homo sapiens with 9 samples.

Results

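HHIP and 8 further genes of the hedgehog pathway were followed in MDA-MB-231 cells given Dmimic, Qmimic or AllStar. Members were all probe sets that the array annotation ties to a single symbol among HHIP, PTCH1, SMO, GLI1, GLI2, GLI3, SUFU, GAS1 and BOC. This gave 9 of 19775 genes and 27 of the 54613 probe sets tested, 4 for HHIP and 23 for the other 8 genes. HHIP had been chosen by its measured difference between the mimics and AllStar in these same arrays, so those values are a description without a test. The other genes were added for their place in the pathway.

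MDA-MB-231 is a human breast cancer line of the triple-negative type, which lacks oestrogen and progesterone receptors and HER2 amplification. Its cells were reverse transfected, by means of a cationic lipid, with a small RNA at 10 nM, and total RNA of each well was taken 48 h later for an HG-U133 Plus 2.0 array. The groups were Dmimic, Qmimic and AllStar, a negative control, with 3 biological replicates each, so that all 9 wells shared the line, the reagent and the dose, and all control wells carried a transfected RNA. The title of the series mentions AXL, a receptor kinase, and the microRNA miR-34a, while the labels neither explain the letters D and Q nor give a sequence for either mimic. In these bulk samples, fewer expressing cells and less RNA per cell cannot be told apart.

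Hedgehog ligands are secreted proteins that bind PTCH1, a receptor that otherwise holds the membrane protein SMO inactive. Freed SMO leads to activation of the GLI transcription factors, which SUFU restrains, and PTCH1, HHIP and GLI1 are themselves among the genes that GLI factors switch on. HHIP sits on the cell surface, binds hedgehog ligands and keeps them from PTCH1, so it acts as a brake on the pathway. In adult breast the pathway has little activity in epithelial cells, and ligand is often discussed as a signal from tumour cells to the stroma.

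Sequences of the named microRNA and of 2 promoters that the results refer to were taken from RefSeq on GRCh38.p14. The first is the mature microRNA that the series title names, at chr1:9151735-9151756 on the minus strand, with its seed (bases 2 to 8) in capitals. The second is the stretch before the first base of HHIP, at chr4:144645906-144646155 on the plus strand, where the capitals mark the 136 bases that lie between the starts of HHIP and its divergent neighbour HHIP-AS1. The third is the stretch before one of the 5 annotated starts of PTCH1, at chr9:95509267-95509516 on the minus strand, with a match to a GLI binding motif in capitals.
hsa-miR-34a-5p: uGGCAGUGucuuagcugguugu
HHIP: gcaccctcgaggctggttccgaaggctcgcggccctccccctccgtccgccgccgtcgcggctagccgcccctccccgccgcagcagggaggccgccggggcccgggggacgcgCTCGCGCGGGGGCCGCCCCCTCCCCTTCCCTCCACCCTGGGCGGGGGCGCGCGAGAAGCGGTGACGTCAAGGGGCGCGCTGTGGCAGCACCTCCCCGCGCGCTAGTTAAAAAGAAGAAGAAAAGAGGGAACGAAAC
PTCH1: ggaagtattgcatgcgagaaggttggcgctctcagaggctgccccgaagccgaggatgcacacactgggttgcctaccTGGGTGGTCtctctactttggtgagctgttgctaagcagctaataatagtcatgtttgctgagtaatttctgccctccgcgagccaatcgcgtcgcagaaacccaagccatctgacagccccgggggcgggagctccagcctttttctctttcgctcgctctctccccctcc

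One control array, AllStar replicate 3, was unlike the remaining 8, and most differences from AllStar are therefore given both with all 9 arrays and without it. It correlated with them at r of 0.974 to 0.981, while they correlated with each other at 0.993 to 0.998. Its interquartile range was 2.99, against 3.41 to 3.53, and its 18S ribosomal probe sets averaged 8.73 on the log2 scale, against 5.27 to 6.26. It lay outside the range of the other 8 arrays on 71.3% of all probe sets, below them on all 4 HHIP probe sets, and above or below them on 12 and 7 of the 23 other member probe sets. The line's own markers VIM, CD44, EGFR, CAV1 and MSN were at or above the level percentile of 97.0 among all probe sets. Of 7 luminal genes, CDH1, FOXA1, PGR and ESRP1 were at percentiles of 17.2 to 37.6, whereas ESR1, GATA3 and ERBB2 were at 69.1 to 85.3 on their brightest probe set. Over 6 measured markers of leukocytes, endothelium and fibroblasts (PTPRC, CD3E, PECAM1, CDH5, DCN and COL1A1) the summed log2 signal was 31.3 to 31.8 with Dmimic, 30.9 to 31.6 with Qmimic and 31.6 to 34.0 with AllStar, and their part in any result was not tested.

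HHIP was higher with both mimics than with AllStar on each of its 4 probe sets, and it was highest with Dmimic. On its brightest probe set, 230135_at, the log2 signal was 8.51, 8.24 and 9.12 in the Dmimic arrays, 8.19, 7.97 and 7.70 in the Qmimic arrays, and 6.90, 6.97 and 6.26 in the AllStar arrays. The group means were 8.63 ± 0.45 with Dmimic, 7.95 ± 0.25 with Qmimic and 6.71 ± 0.39 with AllStar (SD, n = 3 each). All 6 mimic arrays lay above all 3 AllStar arrays, and the 3 Dmimic arrays lay above the 3 Qmimic arrays. The fitted difference from AllStar was 1.92 log2 with Dmimic and 1.24 log2 with Qmimic. Without AllStar replicate 3, the lowest array, these differences were 1.69 and 1.02.

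The remaining HHIP probe sets gave smaller or similar differences in the same order. On 237466_s_at the log2 signal was 7.71, 7.24 and 8.16 with Dmimic, 7.33, 7.21 and 7.13 with Qmimic, and 6.61, 6.55 and 5.97 with AllStar. On 1556037_s_at it was 6.67, 6.68 and 7.13 with Dmimic, 6.58, 6.45 and 6.31 with Qmimic, and 6.12, 6.21 and 5.55 with AllStar. Every mimic array was above every AllStar array on both. On 223775_at, the dimmest of the set, the log2 signal was 6.17, 5.62 and 6.66 with Dmimic, 5.80, 5.95 and 5.43 with Qmimic, and 4.70, 4.70 and 4.15 with AllStar. There too no mimic array reached down to the AllStar arrays. Mimic arrays lay wholly above AllStar on 8.33% of all probe sets with 9 arrays, and on 10.4% with 8.

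Over these 3 probe sets the difference from AllStar was 0.87 to 1.63 log2 with Dmimic and 0.49 to 1.21 log2 with Qmimic. On 8 arrays it was 0.66 to 1.45 with Dmimic and 0.28 to 1.02 with Qmimic. Dmimic replicate 3 was the highest array and AllStar replicate 3 the lowest array on all 4 probe sets. By mean signal the 4 probe sets stood at percentiles of 77.9, 71.4, 63.4 and 49.6 among all probe sets, in the order 230135_at, 237466_s_at, 1556037_s_at and 223775_at. Signals of different probe sets are not on a common scale, so this places each one within the array and not against the others. Over the 9 arrays the probe sets followed each other with Pearson r of 0.937 to 0.987, values that share the same arrays and the group differences.

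**Figure D1:**
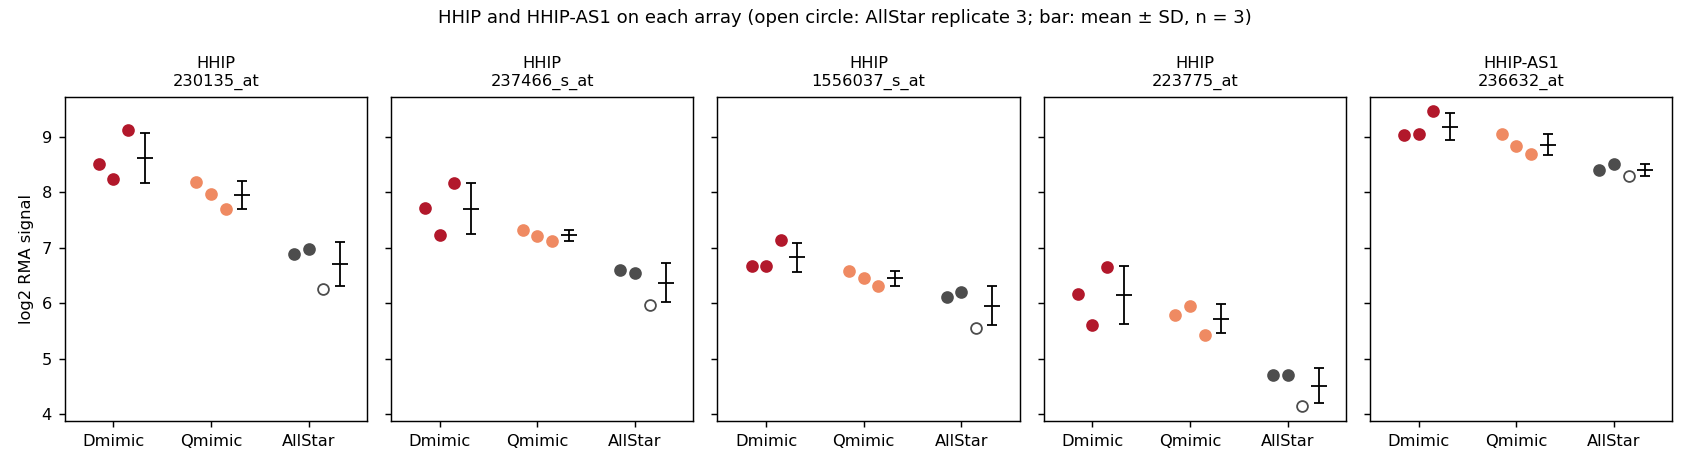
Log2 RMA signal (y axis) of the 4 HHIP probe sets and of HHIP-AS1 on each array of the Dmimic, Qmimic and AllStar groups. Points are arrays, the open circle is AllStar replicate 3, and bars give the mean ± SD of 3 arrays. On each panel all mimic points lie above all AllStar points, and Dmimic replicate 3 is the highest HHIP point, at 9.12 on 230135_at.

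HHIP was also compared between the mimics, a contrast that did not itself choose it. The same mimic arrays entered the choice, so these tests are not fully independent of it. The Dmimic minus Qmimic difference was positive on all 4 probe sets, at 0.67, 0.48, 0.38 and 0.43 log2 for 230135_at, 237466_s_at, 1556037_s_at and 223775_at. None was called, where a call needs a limma adjusted p (Benjamini-Hochberg over all 54613 probe sets) under 0.05 and a change of at least 1.5-fold. With all 9 arrays the 95% interval for 230135_at was 0.12 to 1.22 log2, and the adjusted p was 1.00 on each probe set. On the 8 arrays the limma adjusted p was 0.251, 0.360, 0.296 and 0.504. In this contrast 0% of all probe sets were called with 9 arrays (0 of 54613, with 1318 at an unadjusted p under 0.05) and 0.0806% with 8.

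For Dmimic against Qmimic, permuting the arrays (exact, two-sided) gave p = 0.1 on 230135_at and on 1556037_s_at, where the groups did not overlap, p = 0.2 on 237466_s_at and p = 0.3 on 223775_at. For 3 arrays against 3 it cannot go below 0.1. Dmimic arrays lay wholly above Qmimic arrays on 8.95% of all probe sets. A higher HHIP signal with Dmimic than with Qmimic was thus measured on every probe set, at a size that did not pass the test.

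HHIP-AS1, a long noncoding RNA gene transcribed away from HHIP from the opposite strand, had a similar order of groups over a narrower range. Its single probe set 236632_at had log2 signals of 9.04, 9.05 and 9.46 with Dmimic, 9.06, 8.83 and 8.69 with Qmimic, and 8.40, 8.51 and 8.29 with AllStar. All mimic arrays were above all AllStar arrays, and Dmimic and Qmimic overlapped. HHIP-AS1 was taken up for its position beside HHIP, and its values come from the arrays that picked HHIP.

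HHIP-AS1 rose with Dmimic by 0.73 log2 (1.66-fold, limma adjusted p = 0.0308) once AllStar replicate 3 was left out, in a comparison where 0.43% of all probe sets were called higher. With all 9 arrays the difference was 0.78 log2 and was not called (adjusted p = 0.0895). Leaving out each of the 8 arrays in turn kept the call in 5 fits and lost it without AllStar replicate 1, AllStar replicate 2 or Qmimic replicate 2, with the adjusted p between 0.0245 and 0.228. With Qmimic the difference of HHIP-AS1 from AllStar was 0.41 log2 on 8 arrays (adjusted p = 0.155) and 0.46 log2 on 9 (adjusted p = 0.217). Dmimic minus Qmimic was 0.32 log2 (adjusted p = 0.375 on 8 arrays). Permuting the arrays (exact, two-sided) gave p = 0.1 for HHIP-AS1 with each mimic against the 3 AllStar arrays, the smallest value possible.

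Over the 9 arrays HHIP-AS1 followed the HHIP probe sets with r of 0.945 to 0.979, and with r of 0.757 to 0.891 once group means were taken out. These are descriptions over arrays that both genes share. No further gene of the neighbourhood was called in any of the comparisons. The nearest measured genes on one side were LOC101927636, LOC105377458, FREM3 and GUSBP5, and on the other ANAPC10, ABCE1, OTUD4 and SMAD1. Those named first lie 663701 to 1084695 bases from HHIP. Their mean log2 signals were 2.76 to 3.11, at percentiles of 0.49 to 5.52 among all probe sets. At such low signal the lack of a call cannot show that they did not change. On the 8 arrays the representative probe sets of these 8 genes differed from AllStar by -0.22 to 0.15 log2 with Dmimic and by -0.19 to 0.29 log2 with Qmimic. On 9 arrays they differed by -0.05 to 0.39 log2 with Dmimic and by -0.18 to 0.39 log2 with Qmimic. ANAPC10, a subunit of the anaphase-promoting complex, differed by 0.15 log2 with Dmimic and 0.08 log2 with Qmimic on 8 arrays, and by 0.39 and 0.33 log2 on 9. Its dimmer probe set 241959_at differed with Qmimic by 0.33 log2 on 8 arrays (limma adjusted p = 0.0455, under 1.5-fold) and by 0.65 log2 on 9 (adjusted p = 0.234). OTUD4, a deubiquitinase, differed by 0.15 log2 with Dmimic and 0.29 log2 with Qmimic on 8 arrays, and by 0.26 and 0.39 log2 on 9.

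**Figure D2:**
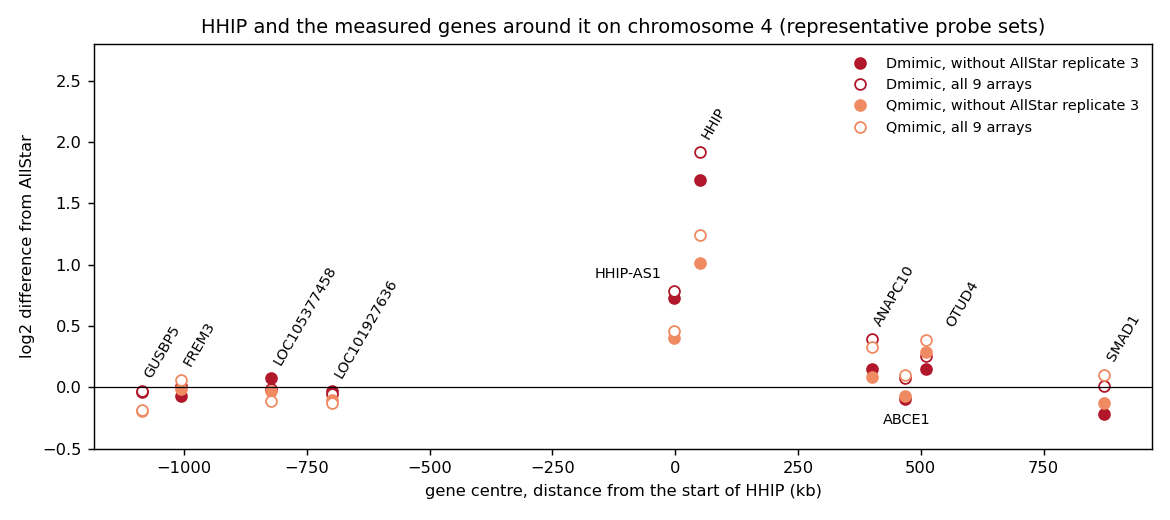
Log2 difference from AllStar (y axis) of the representative probe set of HHIP, HHIP-AS1 and the 8 nearest measured genes, against the distance of the gene's centre from the start of HHIP in kb (x axis). Dark red is Dmimic and orange Qmimic, filled without AllStar replicate 3 and open with all 9 arrays. HHIP reaches 1.69 with Dmimic on 8 arrays and HHIP-AS1 0.73, while with Dmimic the other genes lie between -0.22 and 0.15 on 8 arrays and between -0.05 and 0.39 on 9.

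Windows of 300 bases, from 250 before to 50 after a start, were searched for 2 motifs on both strands. The 136 bases between the HHIP and HHIP-AS1 starts, in capitals in the HHIP sequence above, lie within the windows of both genes. Only exact matches were counted, so other forms of a GLI site were not looked for. The GLI binding motif GACCACCCA (TGGGTGGTC on the other strand) was in neither the HHIP nor the HHIP-AS1 window. It was in 83 of 35116 windows over all genes (0.2364%), and among 13 windows of 7 member genes in 1, the PTCH1 window printed above. The palindrome TGACGTCA, the cyclic AMP response element, was looked for after it had been seen in the sequence. It starts 75 bases before the first base of HHIP, lies in the windows of HHIP and HHIP-AS1, and was in 649 of the 35116 windows (1.848%). The 2 motifs do not overlap each other, GLI1 and GLI3 had no window, and a match describes letters and not a bound site.

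Over the 9 arrays the genes whose signal was most like HHIP on 230135_at were OPN3, NUAK1, UBASH3B, H2AC6, RND3 and CFAP251. Ranked were probe sets tied to a single symbol, without the members and without symbols that start with LOC. Pearson r over the 9 arrays was 0.996 for OPN3, 0.994 for NUAK1 and 0.993 for UBASH3B. It was likewise 0.993 for H2AC6 and RND3, and 0.992 for CFAP251. Over 8 arrays these values were 0.988 to 0.994 and the order changed, with OPN3, UBASH3B and H2AC6 at ranks 2, 4 and 6 and NUAK1, RND3 and CFAP251 at ranks 9, 11 and 12. OPN3 encodes an opsin, NUAK1 a kinase of the AMPK family and H2AC6 a histone H2A.

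OPN3 had log2 signals of 9.79, 9.65 and 10.12 with Dmimic, 9.72, 9.54 and 9.45 with Qmimic, and 9.12, 9.10 and 8.76 with AllStar. As on HHIP, its highest array was Dmimic replicate 3 and its lowest AllStar replicate 3. Of 54612 other probe sets, 1174 had r above 0.9 with HHIP on 230135_at and 43 were closer to it than HHIP-AS1. The median over all was -0.136. These counts include the remaining HHIP probe sets, of which 237466_s_at (r = 0.987) and 223775_at (r = 0.983) were closer than HHIP-AS1 (r = 0.979). The points share the AllStar arrays and the group differences.

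None of the 23 probe sets of PTCH1, SMO, GLI1, GLI2, GLI3, SUFU, GAS1 and BOC was called in any comparison, with or without AllStar replicate 3. With all 9 arrays their log2 differences from AllStar were -0.40 to 0.41 with Dmimic (median -0.06, against -0.03 over all probe sets) and -0.51 to 0.58 with Qmimic (median -0.10, against -0.03). In that fit 0.00549% of all probe sets were called with Dmimic and 0% with Qmimic. An unadjusted p under 0.05 was reached with Dmimic by 7004 probe sets, of which 3 among the 23, and with Qmimic by 8924, of which 5 among the 23. On 8 arrays 17.4% of the 23 reached it with Dmimic and 21.7% with Qmimic, against 17.1% and 18.2% of all probe sets. Between the mimics 0 of the 23 reached it with 9 arrays, against 2.41% of all. On 8 arrays 6 did (26.1%), against 11.1%, with a smallest limma adjusted p of 0.349. Without AllStar replicate 3 the ranges were -0.24 to 0.13 with Dmimic and -0.27 to 0.27 with Qmimic. In that fit 0.864% of all probe sets were called with Dmimic and 0.54% with Qmimic, and the smallest limma adjusted p among the 23 was 0.0893 with Dmimic and 0.0757 with Qmimic. The 95% half-widths there were 0.14 to 0.32 log2. They bound how large a missed change in the signal of a single probe set could be. By mean signal the 23 stood at percentiles from 11.2 (GAS1 204457_s_at) to 79.9 (SUFU 222749_at) among all probe sets. Whether transcripts at the low end were detected was not tested, so a change in those RNAs is not bounded.

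**Figure D3:**
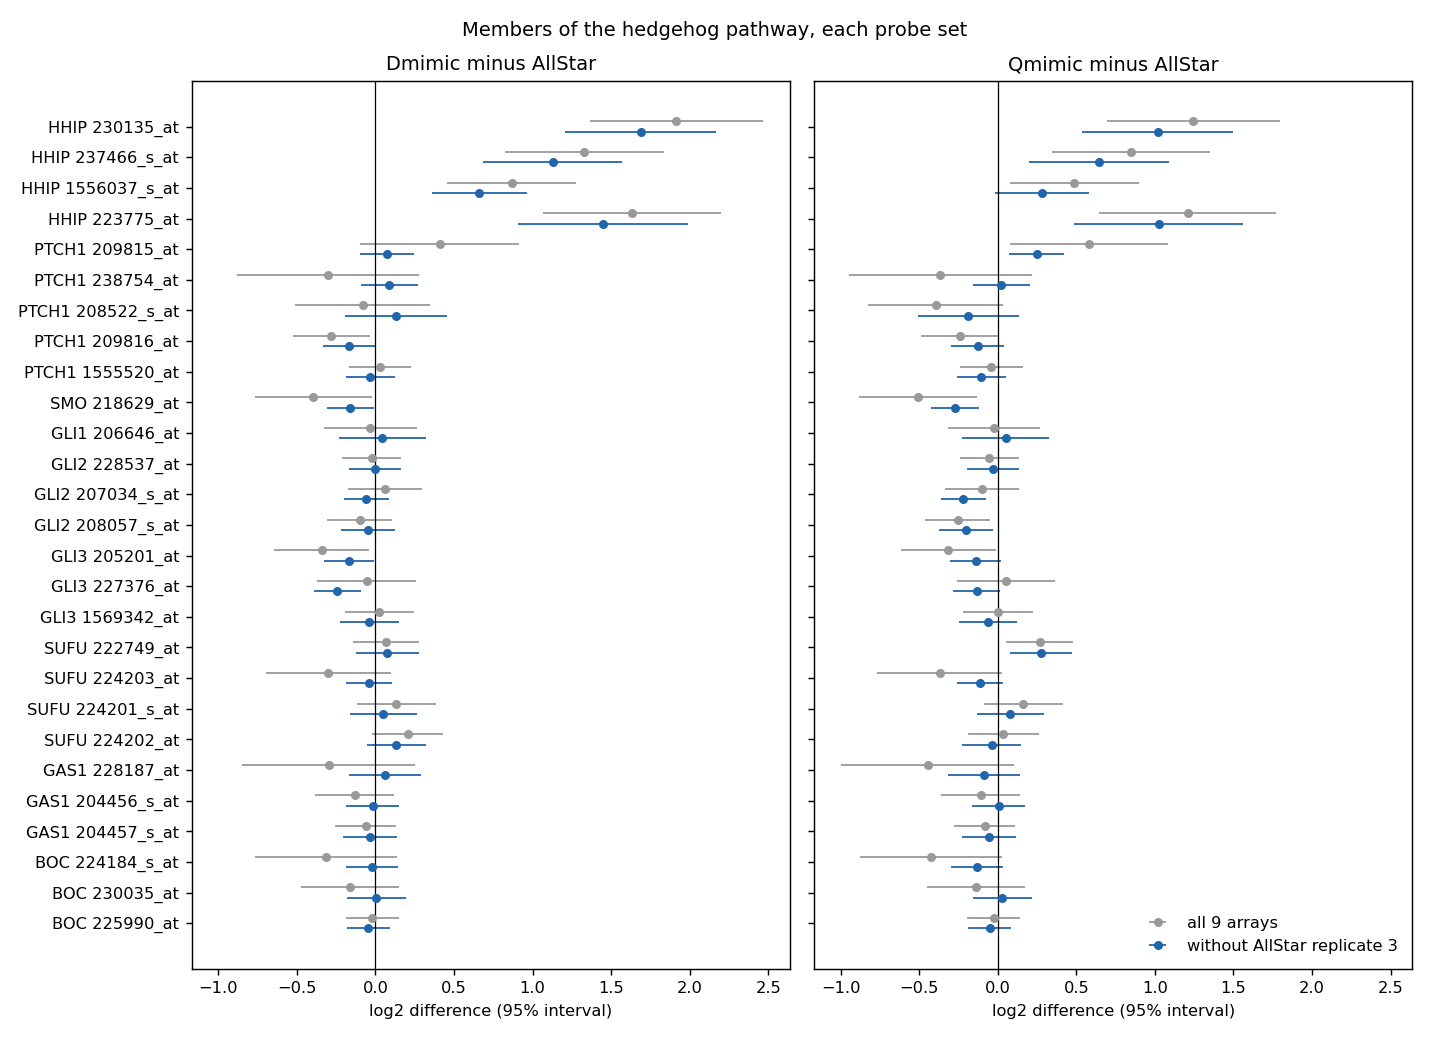
Log2 difference from AllStar with 95% interval (x axis) for each of the 27 member probe sets (y axis), with Dmimic on the left and Qmimic on the right. Grey is the fit of all 9 arrays and blue the fit without AllStar replicate 3. HHIP stands at 0.66 to 1.69 with Dmimic in blue, and the other 23 lie between -0.24 and 0.13.

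Among the receptors, PTCH1, which is both the ligand receptor and a gene that GLI factors induce, had 5 probe sets that did not move one way. On 209815_at, its brightest, the log2 signal was 6.96, 7.01 and 6.87 with Dmimic, 7.03, 7.22 and 7.11 with Qmimic, and 6.83, 6.91 and 5.87 with AllStar. AllStar replicate 3 was the lowest array, well below the other 8. The difference of 209815_at from AllStar was 0.41 log2 with Dmimic and 0.58 log2 with Qmimic on 9 arrays, and 0.07 and 0.25 log2 on 8. On 238754_at the same array lay on the other side: PTCH1 had 5.99, 5.95 and 5.96 with Dmimic, 6.06, 5.81 and 5.84 with Qmimic, and 5.87, 5.89 and 7.05 with AllStar. Its difference from AllStar was -0.30 log2 with Dmimic and -0.37 log2 with Qmimic on 9 arrays, and 0.09 and 0.02 log2 on 8, so the sign turned with that array. PTCH1 208522_s_at, 209816_at and 1555520_at had group means between 3.57 and 4.71 log2, and were not called either.

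SMO, the transducer that PTCH1 holds back, had 1 probe set, 218629_at. Its log2 signal was 5.87, 5.77 and 5.77 with Dmimic, 5.73, 5.62 and 5.72 with Qmimic, and 5.96, 5.96 and 6.67 with AllStar. All mimic arrays lay below all AllStar arrays. The difference without AllStar replicate 3 was -0.16 log2 with Dmimic and -0.27 log2 with Qmimic, and was not called. On 9 arrays it was -0.40 and -0.51 log2, with AllStar replicate 3 the highest array.

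GAS1 and BOC are cell surface co-receptors that help PTCH1 bind ligand. GAS1 on 228187_at had log2 signals of 5.44, 5.29 and 5.65 with Dmimic, 5.44, 5.27 and 5.23 with Qmimic, and 5.42, 5.38 and 6.47 with AllStar. Its other probe sets, 204456_s_at and 204457_s_at, had group means of 3.35 to 4.09. BOC on 224184_s_at had 6.76, 6.83 and 6.73 with Dmimic, 6.78, 6.61 and 6.62 with Qmimic, and 6.78, 6.82 and 7.68 with AllStar. On GAS1 228187_at and BOC 224184_s_at the arrays other than AllStar replicate 3 lay close together, and the differences shrank without it. GAS1 228187_at differed from AllStar by -0.30 log2 with Dmimic and -0.45 log2 with Qmimic on 9 arrays, and by 0.06 and -0.09 log2 on 8. BOC 224184_s_at differed by -0.32 log2 with Dmimic and -0.43 log2 with Qmimic on 9 arrays, and by -0.02 and -0.13 log2 on 8. BOC 230035_at and 225990_at had group means of 6.58 to 6.74 and 5.17 to 5.19. On 225990_at the differences did not shrink. They were -0.02 log2 with Dmimic and -0.03 log2 with Qmimic on 9 arrays, and -0.05 log2 with each on 8.

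SUFU, the inhibitor that holds GLI proteins in the cytoplasm, had 4 probe sets. On 222749_at, its brightest, the log2 signal was 7.88, 7.92 and 7.97 with Dmimic, 8.29, 7.98 and 8.09 with Qmimic, and 7.88, 7.81 and 7.87 with AllStar. The Qmimic arrays lay above those of the other groups. No share of all probe sets is given for this separation. Among the 23 member probe sets other than HHIP, Qmimic lay wholly above AllStar on 2 and wholly below on 6 with 9 arrays. Without AllStar replicate 3 it lay above on 2 and below on 9. The share over all probe sets was not counted for this contrast, so these counts are not a result about the members. The difference of SUFU 222749_at from AllStar without replicate 3 was 0.08 log2 with Dmimic and 0.27 log2 with Qmimic. Dmimic minus Qmimic was -0.20 log2, with no call. SUFU 224203_at, 224201_s_at and 224202_at had group means of 6.19 to 6.56, 5.90 to 6.06 and 4.06 to 4.27.

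GLI1, an activator whose transcript is the customary readout of hedgehog signalling, was measured on 206646_at alone. Its log2 signal was 6.41, 6.53 and 6.39 with Dmimic, 6.17, 6.66 and 6.53 with Qmimic, and 6.47, 6.33 and 6.63 with AllStar. The 3 groups overlapped fully. The GLI1 difference from AllStar on 8 arrays was 0.04 log2 with Dmimic (95% interval -0.23 to 0.32) and 0.05 log2 with Qmimic (-0.22 to 0.33). On the 9 arrays it was -0.03 log2 with Dmimic and -0.02 log2 with Qmimic.

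GLI2, the main activator early in the response, had log2 signals of 5.52, 5.49 and 5.59 with Dmimic, 5.52, 5.41 and 5.59 with Qmimic, and 5.53, 5.55 and 5.60 with AllStar on 228537_at. Its probe sets 207034_s_at and 208057_s_at had group means of 5.03 to 5.19 and 4.63 to 4.88. GLI3, which in the absence of ligand is cut into a repressor, had log2 signals of 7.59, 7.75 and 7.61 with Dmimic, 7.72, 7.67 and 7.64 with Qmimic, and 7.84, 7.80 and 8.34 with AllStar on 205201_at. There all mimic arrays lay below all AllStar arrays, and the difference was -0.34 log2 with Dmimic and -0.32 log2 with Qmimic on 9 arrays, and -0.17 and -0.14 log2 on 8, without a call.

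On GLI3 227376_at the log2 signal was 7.20, 7.29 and 7.18 with Dmimic, 7.35, 7.36 and 7.30 with Qmimic, and 7.50, 7.43 and 6.91 with AllStar. Once AllStar replicate 3 was left out, both mimics lay below AllStar on this probe set too, and the difference was -0.24 log2 with Dmimic and -0.13 log2 with Qmimic, against -0.06 and 0.05 log2 on 9 arrays. GLI3 1569342_at had group means of 4.47 to 4.50. Over the 23 probe sets, all mimic arrays lay wholly below all AllStar arrays on 3 with 9 arrays (PTCH1 209816_at, SMO 218629_at and GLI3 205201_at), where 3.83% of all probe sets did so, and wholly above on 0. With 8 arrays this was 6 below, where 10.1% of all probe sets were, and 0 above.

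The wider pathway was read on 4 lists with 59 further genes, of which 50 were measured on 136 probe sets. They covered ligands and their release (15 probe sets), other receptors and partners of SMO (23), regulators of GLI proteins (60) and genes reported as GLI targets (38). With all 9 arrays 0 of the 136 were called in each comparison by limma, where over both mimics 0.0806% of all probe sets were, and 24 with Dmimic (17.6%), 26 with Qmimic (19.1%) and 6 between the mimics (4.41%) had an unadjusted p under 0.05. Over all probe sets these shares were 12.8% with Dmimic, 16.3% with Qmimic and 2.41% between the mimics. On 8 arrays 1 fell with Dmimic, where 0.434% of all probe sets were called lower, and 3 fell with Qmimic, where 0.242% were. In the same fit 0 rose with either mimic, and 2 were higher with Dmimic than with Qmimic, where 0.0732% were called higher. Over the mean of both mimics 2 fell, GSK3B 242336_at by 0.62 log2 and BCL2 203685_at by 0.81 log2, where 0.341% of all probe sets were called lower and 0.721% in either direction. Both were lost when AllStar replicate 1 or AllStar replicate 2 was left out as well, and GSK3B 242336_at also without Qmimic replicate 1, with adjusted p up to 0.173 for GSK3B and 0.262 for BCL2. The called probe sets belonged to GSK3B and BCL2.

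GSK3B encodes a kinase that helps mark GLI proteins for cleavage and also acts in WNT and insulin signalling. On 226191_at, its brightest probe set, the log2 signal was 8.69, 8.75 and 8.70 with Dmimic, 7.75, 7.90 and 7.99 with Qmimic, and 8.68, 8.73 and 8.21 with AllStar. All Qmimic arrays lay below all Dmimic and AllStar arrays, a separation whose share over all probe sets was not counted. GSK3B 226191_at was 0.84 log2 higher with Dmimic than with Qmimic (1.78-fold, limma adjusted p = 0.00216 without AllStar replicate 3). This call was kept when each of the 8 arrays was left out in turn. With all 9 arrays the same difference was not called (adjusted p = 0.333). On 226183_at the difference between the mimics was 0.76 log2 (adjusted p = 0.0134 on 8 arrays and 0.223 on 9), lost without Qmimic replicate 1 or Qmimic replicate 3 (highest adjusted p = 0.0633).

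GSK3B fell with Qmimic by 0.82 log2 on 226191_at, by 0.68 log2 on 226183_at and by 0.91 log2 on 242336_at, with limma adjusted p of 0.00452, 0.0172 and 0.00482 without AllStar replicate 3. On 9 arrays these differences were -0.66, -0.60 and -0.61 log2, with adjusted p of 0.155, 0.139 and 0.250. Without AllStar replicate 1 or AllStar replicate 2 in addition, a single AllStar array was left and these 3 calls were lost, with adjusted p up to 0.164. The call on 226183_at was also lost without Qmimic replicate 1. On the same 8 arrays GSK3B differed from AllStar with Dmimic by 0.01, 0.09 and -0.33 log2 on these probe sets, and by 0.18, 0.16 and -0.03 log2 on 9 arrays, and was not called. GSK3B 209945_s_at and 240562_at differed with Qmimic by -0.19 and 0.08 log2 on 8 arrays and by 0.06 and -0.23 log2 on 9, and were not called.

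BCL2, an anti-apoptotic gene reported as a GLI target, fell with Dmimic by 0.91 log2 on 203685_at (adjusted p = 0.0268 without AllStar replicate 3). Its log2 signal there was 5.23, 5.32 and 4.85 with Dmimic, 5.02, 5.53 and 5.47 with Qmimic, and 5.95, 6.14 and 5.16 with AllStar. AllStar replicate 3 lay among the mimic arrays, and with all 9 arrays the difference was -0.62 log2 (adjusted p = 0.338). The call was lost without AllStar replicate 1 or AllStar replicate 2 (adjusted p up to 0.219). On BCL2 203684_s_at, 207004_at and 207005_s_at the 8-array differences with Dmimic were between -0.19 and 0.00 log2, those on 9 arrays were between -0.25 and -0.23 log2, and none was called.

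Without AllStar replicate 3 the list medians lay close to that of all probe sets. The median difference from AllStar with Dmimic was 0.04 log2 for ligands and release and -0.04 for receptors and SMO partners. It was 0.02 for GLI regulators and -0.01 for reported targets, against -0.00040 over all probe sets. With Qmimic these medians were -0.01, -0.05, 0.00 and -0.01, against -0.01. With all 9 arrays GLI regulators stood at 0.16 log2 with Dmimic and 0.15 with Qmimic, and reported targets at -0.16 with Dmimic and -0.17 with Qmimic, values that moved with AllStar replicate 3.

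Of the genes with the largest differences over both mimics, HHAT, the acyltransferase that attaches palmitate to hedgehog ligands, had log2 signals of 7.02, 7.16 and 7.65 with Dmimic, 7.60, 7.19 and 7.09 with Qmimic, and 6.64, 6.71 and 6.45 with AllStar. All mimic arrays were above all AllStar arrays, by 0.61 log2 on 8 arrays (limma adjusted p = 0.0721) and 0.68 on 9 (adjusted p = 0.0926), without a call. FOXM1, a cell cycle transcription factor reported as a GLI target, had 8.94, 9.30 and 8.13 with Dmimic, 8.88, 9.17 and 9.32 with Qmimic, and 9.67, 9.81 and 9.45 with AllStar. It was -0.78 log2 from AllStar over both mimics on 8 arrays (adjusted p = 0.104) and -0.69 log2 on 9 (adjusted p = 0.167), with Dmimic replicate 3 the lowest array. CDON, a co-receptor related to BOC, differed by -0.45 log2 on 8 arrays (1.5-fold was not reached, adjusted p = 0.0401) and by -0.31 log2 on 9 (adjusted p = 0.219).

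The kinase gene DYRK2 differed over both mimics by 0.31 log2 on 8 arrays (adjusted p = 0.034) and the cyclin gene CCND2 by 0.38 (adjusted p = 0.0684), both below the 1.5-fold threshold. BTRC, a ubiquitin ligase subunit that acts on GLI proteins, differed by 0.25 log2. DISP2, related to the ligand exporter DISP1, and GRK2, a kinase that phosphorylates SMO, differed by -0.02 and -0.04 log2. On 9 arrays the values for DYRK2, CCND2, BTRC, DISP2 and GRK2 were 0.58, 0.59, 0.48, 0.22 and -0.24 log2, none of them called.

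**Figure D4:**
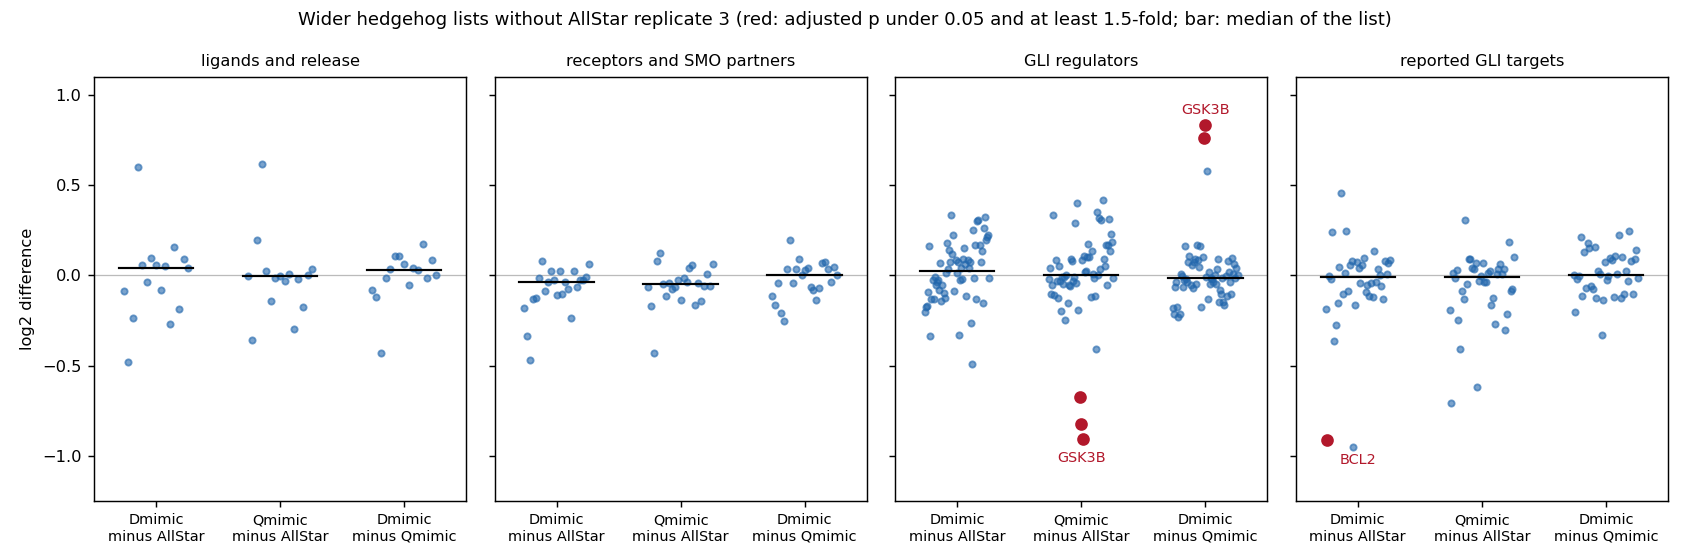
Log2 difference (y axis) of each probe set of the 4 wider lists without AllStar replicate 3, for Dmimic minus AllStar, Qmimic minus AllStar and Dmimic minus Qmimic (x axis). Points are probe sets, red where the limma adjusted p was under 0.05 and the change at least 1.5-fold, and bars are list medians. The red points belong to GSK3B, down to -0.91 with Qmimic and up to 0.84 between the mimics, and to BCL2 at -0.91 with Dmimic.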

How the data were processed

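Per the labels, biotin-labelled RNA of 9 wells was hybridised to 9 HG-U133 Plus 2.0 arrays. The authors deposited log2 values per probe set, made with RMA (per the submitters' processing notes, which list RMA and limma with no version). The 62 control probe sets were left out of the tests, and 54613 were tested without a filter on low signal. The array annotation names 1 gene for 41091 of them. A model of the 3 groups was fitted across all probe sets with limma 3.58.1 (R 4.3.3; lmFit and eBayes, no trend), on 9 arrays and again without AllStar replicate 3. Contrasts were Dmimic and Qmimic against AllStar, the mean of both against AllStar, and Dmimic against Qmimic. Adjusted p values are Benjamini-Hochberg over all 54613, and a call needed an adjusted p under 0.05 and at least 1.5-fold. The script was tested on simulated data. Members and lists were chosen with earlier results of these data known. Named were all members, listed genes that were called, and otherwise 2 a list by size over both mimics with 9 arrays. Also named were the 6 genes with the highest r to HHIP, HHIP-AS1 and the 4 nearest measured genes on each side of HHIP. The ranking by r passed over members, probe sets without a single symbol and symbols that start with LOC. A gene's representative probe set was its brightest. Replicate numbers were not used to pair arrays in these fits. Of 9 same-numbered pairs 3 had a residual correlation above 0.1, over -0.275 to 0.219. With 3 arrays a group, such correlations cannot exclude a pairing. The number of arrays sets the precision, since an array has no read depth.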

Additional observations from a re-analysis of the deposited data

How the results depend on the processing

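HHIP stayed above AllStar with both mimics under all alternatives run. This contrast had chosen HHIP in these same arrays, so the kept sign is a description and adds no support. On 230135_at the Dmimic difference was 1.92 log2. It was 1.67 to 2.11 with 1 array left out, 1.44 (without Dmimic replicate 3) to 1.88 with AllStar replicate 3 left out as well, and 1.60 under array weights. It was 1.33 on 237466_s_at and 0.87 on 1556037_s_at. The Qmimic difference was 1.24. It was 1.02 to 1.38 with 1 array left out, 0.90 (without Qmimic replicate 1) to 1.15 with AllStar replicate 3 left out as well, 0.97 under array weights, and 0.85 on 237466_s_at and 0.49 on 1556037_s_at. Dmimic minus Qmimic was 0.38 to 0.87 and was never called (adjusted p 0.132 to 1.00). With the replicate number as a block the HHIP differences stayed at 1.92 with Dmimic and 1.24 with Qmimic, and 0 probe sets of the wider lists were called. Over both mimics the block left 1 of all probe sets called, against 44 without it. The block changed no call on the 23 probe sets of the other members or on the wider lists. The 23 probe sets of the other members had 0 calls under each alternative. The wider lists had 0 calls in the main fit of 9 arrays. With Dmimic they had 2 calls under array weights, and 0 to 2 when arrays were left out. With Qmimic they had 1 after a further quantile normalisation, 2 after cyclic loess, 5 under array weights, and 0 to 6 when arrays were left out. Over both mimics they had 2 under array weights and 0 to 3 when arrays were left out. Between the mimics they had 1 after quantile normalisation, 1 after cyclic loess, 3 under array weights, 2 with the arrays of the compared groups alone, and 0 to 3 when arrays were left out. Leaving out AllStar replicate 3, together with each other array in turn, was chosen after the data had been seen. The array weights did not fully converge, and the mean of both mimics has no fit on compared groups alone that differs from the one given. The causes were not tested.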
